A study of Mus musculus with 96 samples.

Results

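The genes described here encode the proteins of the cytosolic ribosome. They were taken by symbol from the TPM table and kept where the mean over all cells was 10 TPM or more. The symbol rule took Rpl or Rps followed by a number and at most 1 further letter (a, x or l). It also took Rplp0, Rplp1, Rplp2 and Rpsa, and left out the Rps6k kinases. Symbols with other endings, such as Rps3a1 (mean 3673 TPM) and Rpl22l1, lay outside the rule. TPM is abundance per transcript length, scaled so that each cell sums to 1000000. The symbol rule took 81 of 23955 rows, and 78 of them passed the filter: 43 of the large subunit, 32 of the small subunit and the 3 stalk genes. The filter on the mean therefore chose the members from these same values, and the levels below are a description. Just inside it were Rps4l at a mean of 27.1 TPM, Rps15a at 93.7 TPM and Rpl22 at 164 TPM. Just outside it were Rpl39l at 0.89 TPM, Rpl3l at 0.621 TPM and Rpl10l, which was listed at 0.

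The ribosome translates mRNA into protein, and its small subunit reads the message while its large subunit joins the amino acids. Blood progenitors that grow and divide make many ribosomes, and neutrophils make fewer as they mature. The mRNAs of ribosomal proteins belong to the TOP class, which begins with a cytosine and a run of pyrimidines and whose translation is set by mTOR through LARP1.

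The cells were 96 single splenocytes from 2 moribund mice with acute myeloid leukemia, 48 from each mouse. Both mice carried Flt3ITD/ITD, an activating internal tandem duplication of a receptor tyrosine kinase on both alleles, and Dnmt3afl/-, a DNA methyltransferase gene with 1 floxed and 1 null allele, together with MxCre, a Cre recombinase under the interferon-inducible Mx promoter. No group without these alleles was analysed here, and no difference below is an effect of either gene. Splenocytes were enriched on magnetic beads for c-Kit, a receptor tyrosine kinase of blood progenitors, and single cells were captured on a microfluidic chip in independent rounds. The prefix of the table's columns divided the cells exactly as the mouse labels did, so whatever the prefix stands for and the mouse cannot be told apart.

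Cells were divided by 3 genes. A cell was H2-Aa-high, S100a8-high or Mpo-high where that gene alone reached 1000 TPM, "several" where more than 1 did, and rest otherwise. H2-Aa encodes a chain of MHC class II, S100a8 a calcium-binding protein abundant in neutrophils, and Mpo the myeloperoxidase of granulocyte-monocyte progenitors. Mouse 1 gave 20 rest, 13 Mpo-high and 14 H2-Aa-high cells and 1 of several states. In mouse 2 there were 6 rest, 12 Mpo-high, 19 H2-Aa-high and 8 S100a8-high cells and 3 of several states. Each side of every comparison was 1 animal and cells of an animal are not replicates, so no test was made and values are given as lowest, median and highest over cells.

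Read depth was unknown, because TPM keeps none, so detected genes (1 TPM or above) were counted instead. The median was 3606 (1759 to 5559) in mouse 1 and 3083 (1604 to 6018) in mouse 2. Kit itself, the gene of the selection, reached 1 TPM in 40 of 48 mouse 1 cells and 31 of 48 mouse 2 cells, and in 2 of the 8 S100a8-high cells. Some cells stood apart in their ribosomal profile. Mouse 1 cell 41, Mpo-high, held a summed share of 8.65% and mouse 2 cell 68, of several states, had a rank correlation of only 0.43 with the mean profile of the members. The 8 S100a8-high cells correlated with that profile at 0.45 to 0.80.

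Start sequences are shown because the mRNAs of this family are known for a shared start motif. RefSeq windows on GRCm38.p6 matched 57 of the 78 members, with 68 annotated starts. Each window below holds 15 bases before the annotated start and the first 15 transcribed bases, which lie in the 5′ UTR. Capitals mark an unbroken run of C and T of 5 or more bases that holds the start base. The first set holds members that the results below turn on and that have such a run: the most abundant member (Rps18), the target of S6 kinase (Rps6), 2 of the 4 members with the smallest difference in S100a8-high cells (Rps9 and Rpl7a), a member low in H2-Aa-high cells (Rpl15), and members with copies elsewhere in the table (Rps27 and Rps15a).
Rps18, chr17:33955651-33955680, minus strand: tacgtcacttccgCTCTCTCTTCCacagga
Rps6, chr4:86857353-86857382, minus strand: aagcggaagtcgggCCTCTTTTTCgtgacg
Rps9, chr7:3704026-3704055, plus strand: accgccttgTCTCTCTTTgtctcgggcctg
Rpl7a, chr2:26910792-26910821, plus strand: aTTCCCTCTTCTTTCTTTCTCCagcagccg
Rpl15, chr14:18270972-18271001, minus strand: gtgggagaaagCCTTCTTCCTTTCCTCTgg
Rps27, chr3:90213634-90213663, minus strand: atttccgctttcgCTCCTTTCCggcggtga
Rps15a, chr7:118116133-118116162, minus strand: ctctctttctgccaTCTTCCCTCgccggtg
The second set holds members with no such run at the annotated start: the 2 members with the largest difference in S100a8-high cells (Rpl36a and Rpl26), the second most abundant member (Rpl41) and the stalk base (Rplp0).
Rpl36a, chrX:134585639-134585668, plus strand: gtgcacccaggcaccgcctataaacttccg
Rpl26, chr11:68901551-68901580, plus strand: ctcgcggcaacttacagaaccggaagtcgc
Rpl41, chr10:128549154-128549183, minus strand: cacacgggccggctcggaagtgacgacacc
Rplp0, chr5:115559452-115559481, plus strand: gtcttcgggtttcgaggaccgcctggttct

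A run of 5 or more pyrimidines held the start base in 20 of 68 member windows (29.4%), against 10.1% of 32851 windows of all genes and 9.3% of 6969 windows of other genes at 10 TPM or more. A run of 8 or more anywhere in the 30 bases was in 39.7% of member windows and 12% of all windows. Annotated starts can lie some bases from the start in use, so a window without capitals says only that the run is not at that base. In the full windows of 300 bases, 250 before the start and 50 after, letters were searched on both strands and matches of different motifs could overlap. TCTCGCGA was in 16.2% of member windows, 0.995% of all windows and 2.65% of those of other genes at 10 TPM or more. In the same order, CCGGAAGT, the letters of an ETS-type element, was in 17.6, 3.89 and 9.4%, and AAGATGGC, those of a YY1-type element, in 10.3, 2.75 and 5.04%. CACGTG, the E-box of the Myc family, was in 11.8, 7.15 and 10.5%, near the share of the other expressed genes. TATAAA was in 8.82, 13.6 and 7.2%, below all windows and above those of the other expressed genes. These are matches of letters, not sites of binding.

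The members were among the most abundant mRNAs of these cells. Mean TPM over all cells had a median of 1597 over the members, 62 members reached 1000 TPM, and 42 members were among the 100 most abundant genes of the table. Among the 10 highest means were those of Rps18 (5543 TPM), a protein of the small subunit head, Rpl41 (4851 TPM), the smallest ribosomal protein, Rps19 (4509 TPM), which is mutated in Diamond-Blackfan anemia, Rpl32 (4478 TPM), Rps14 (4377 TPM), Rpl9 (3899 TPM), Rpl3 (3755 TPM), a protein of the peptidyl transferase region, Rps25 (3651 TPM) and Rps23 (3523 TPM). The stalk genes, whose proteins recruit elongation factors, had means of 3094 TPM (Rplp0), 1944 TPM (Rplp1) and 1636 TPM (Rplp2), and Rpsa, the laminin receptor-like small subunit protein, 2069 TPM. The lowest means after Rps4l, Rps15a and Rpl22 were 211 TPM for Rpl30 and 471 TPM for Rps27l. Only 4 members had a mean under 300 TPM. Members kept their order between the mice, with a rank correlation of 0.98 over the 78 means, which share the length scaling and the alignment. No cell was at 0 for 39 members, 34 members were at 0 in 1 to 4 cells, and 5 were at 0 in more.

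Summed over members, the ribosomal share of a cell's TPM depended on its state more than on its mouse. In rest cells it was 15.7, 18.7 and 22.8% in mouse 1 and 11.1, 19.6 and 20.97% in mouse 2 (lowest, median and highest). In Mpo-high cells it was 8.65, 18.2 and 19.6% in mouse 1 and 15.5, 18.4 and 30.7% in mouse 2. These 2 states overlapped in both mice. In H2-Aa-high cells it was 8.002, 12.8 and 18.8% in mouse 1 and 8.93, 12.9 and 22.6% in mouse 2, so most H2-Aa-high cells were below most rest cells and some were not. In S100a8-high cells it was 0.934, 2.11 and 5.72%, and the highest of the 8 was below the lowest of the other 88 cells, 7.21%. Large and small subunit genes kept their balance. The small subunit held a median of 43.4% of member TPM in rest cells and 43.6% in S100a8-high cells of mouse 2. Median numbers of detected genes were 3588, 4463 and 2922 in rest, Mpo-high and H2-Aa-high cells of mouse 1 and 4252, 4041, 2636 and 2617 in rest, Mpo-high, H2-Aa-high and S100a8-high cells of mouse 2. The part of detected-gene number in these shares was not tested.

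**Figure D1:**
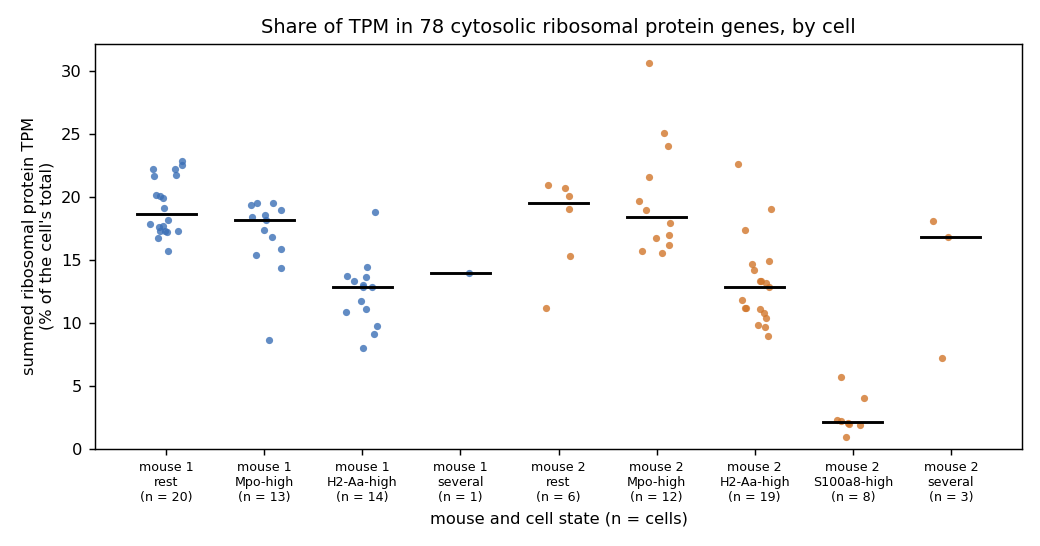
Each point is a cell; the vertical axis is the summed TPM of the 78 members as percent of the cell's total and the bar is the median of the group. The 8 S100a8-high cells lie between 0.934 and 5.72%, below every other cell.

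**Figure D2:**
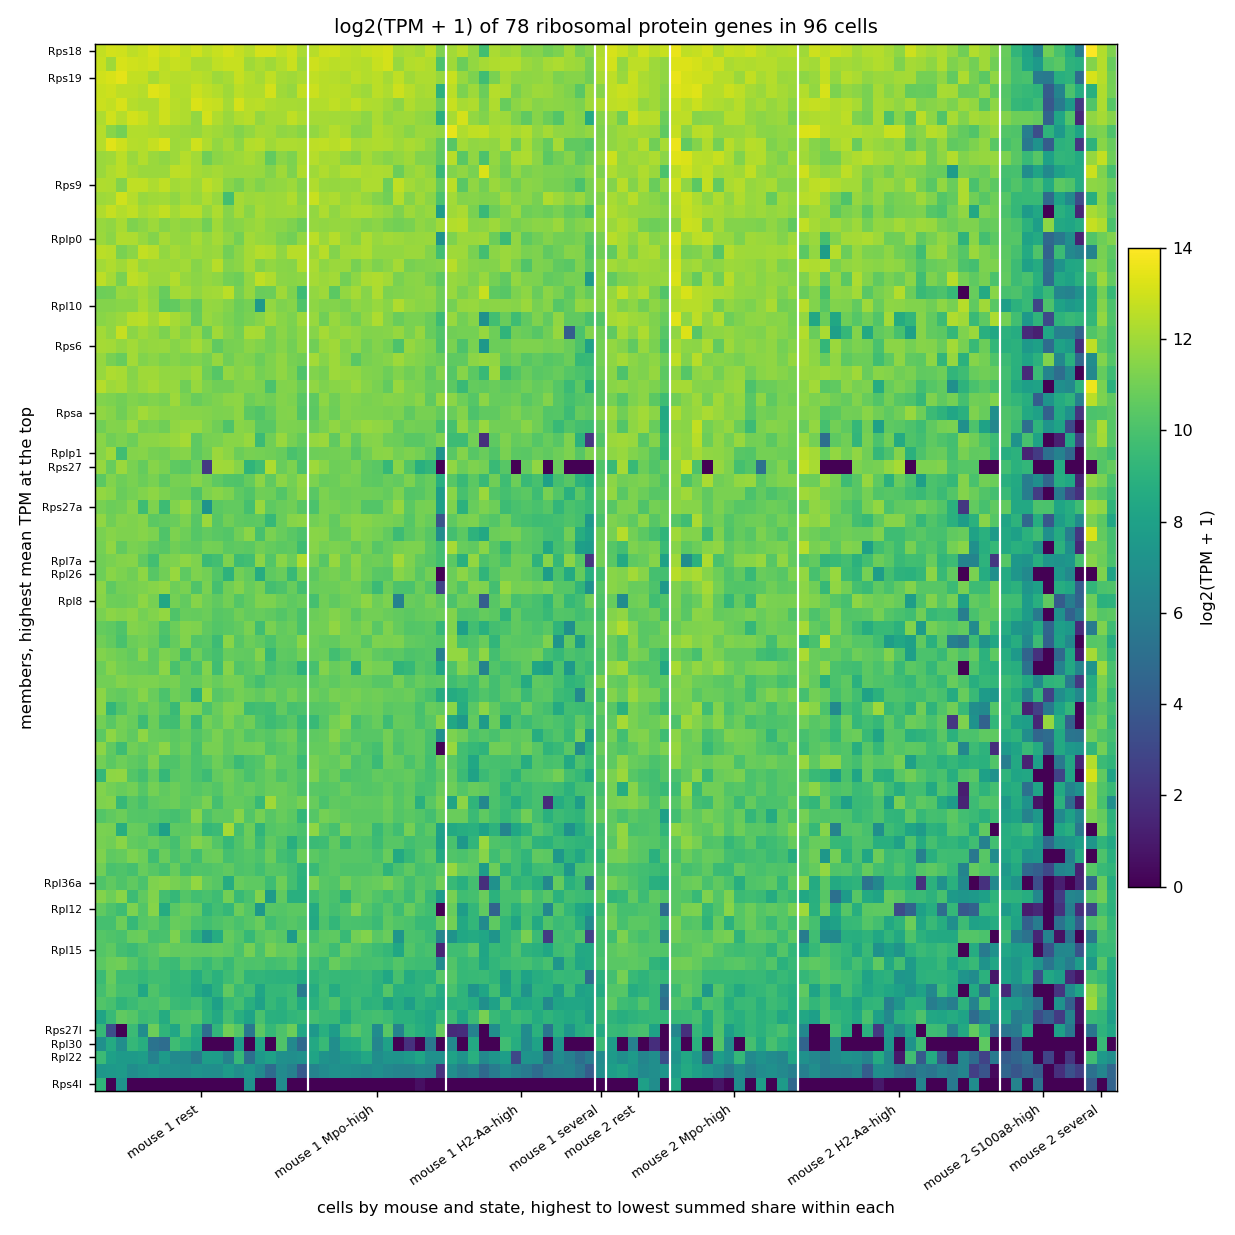
Level of each member, as log2(TPM + 1), in each of the 96 cells, with members in order of mean TPM and cells grouped by mouse and state. The S100a8-high columns are darker than the rest columns of mouse 2 across most rows, cells 73 and 84 most of all. The rows of Rps27, Rps27l, Rpl30 and Rps4l hold dark cells in other groups too.

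The S100a8-high cells of mouse 2 had lower values of the members than its rest cells, and for many of them, Rps18, Rpl41 and Rps19 included, the groups did not overlap. Rps18 was at 5174, 7299 and 9013 TPM in the 6 rest cells and 59.5, 505 and 2021 TPM in the 8 S100a8-high cells. Rpl41 was at 3251, 5042 and 8590 TPM in rest and 180, 726 and 1630 TPM in S100a8-high cells. Rps19 was at 3219, 4413 and 7382 TPM in rest and 29.9, 498 and 1783 TPM in S100a8-high cells. Every S100a8-high cell was below every rest cell for each of these 3 genes, and the differences in mean log2(TPM + 1) were -4.01, -2.93 and -4.08. Rps14, a gene lost in the human 5q- syndrome, was at 2676, 5069 and 6598 TPM in rest and 3.99, 381 and 1334 TPM in S100a8-high cells, again without overlap, with a difference of -4.91. Rpl9 did overlap, at 1888, 4722 and 7719 TPM in rest and 2.10, 1409 and 2681 TPM in S100a8-high cells.

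All 78 members were lower in S100a8-high cells by 1 or more on the log2 scale, as were 49.8% of the 7210 genes that passed the same 10 TPM filter. None was higher by that much, where 11.5% of the genes were. The members' median difference was -4.08 and that of all genes was -0.99. Among the 1497 genes whose mean reached 100 TPM it was -2.03, and 64.8% of them were lower, as were all 76 members that reached it. For 50 members every S100a8-high cell was below every rest cell, which held for 1.84% of the 7210 genes. A gene at 0 in any rest cell cannot meet this, so the share depends on detection. It was not computed for genes at 100 TPM or more. The median difference was -4.09 for the large subunit, -3.96 for the small subunit and -4.96 for the stalk. Among the 77 mitochondrial ribosomal protein genes at 10 TPM or more, whose ribosome is a separate one, 61 were lower and the median difference was -2.35.

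The largest differences were those of Rpl36a, Rpl26 and Rplp1. Rpl36a was at 408, 977 and 2145 TPM in rest cells and 0, 1.51 and 244 TPM in S100a8-high cells, 3 of which were at 0, with a difference of -7.19. Rpl26, a large subunit protein that also binds the p53 mRNA, was at 905, 2739 and 4296 TPM in rest and 0, 97.8 and 372 TPM in S100a8-high cells, with a difference of -6.43. The stalk gene Rplp1 was at 613, 2358 and 3602 TPM in rest and 0, 30.1 and 517 TPM in S100a8-high cells, with a difference of -6.21. The groups did not overlap for any of the 3.

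The smallest differences, after the rarely detected Rps4l (-1.03), were those of Rps27a, Rpl7a and Rps9. Rps27a, which encodes a fusion of ubiquitin with a small subunit protein, was at 1140, 2018 and 2538 TPM in rest cells and 302, 629 and 1573 TPM in S100a8-high cells, with a difference of -1.54. Rpl7a was at 260, 1406 and 2833 TPM in rest and 145, 172 and 1269 TPM in S100a8-high cells, with a difference of -1.75. Both genes overlapped between the groups. Rps9 was at 1784, 3208 and 5682 TPM in rest and 386, 947 and 1416 TPM in S100a8-high cells, without overlap, with a difference of -2.03. Rpl5 and Rpl11, which bind Mdm2 with the 5S RNA when ribosome assembly fails, differed by -4.32 and -3.73, and Rps6, the substrate of S6 kinase, by -4.15.

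**Figure D3:**
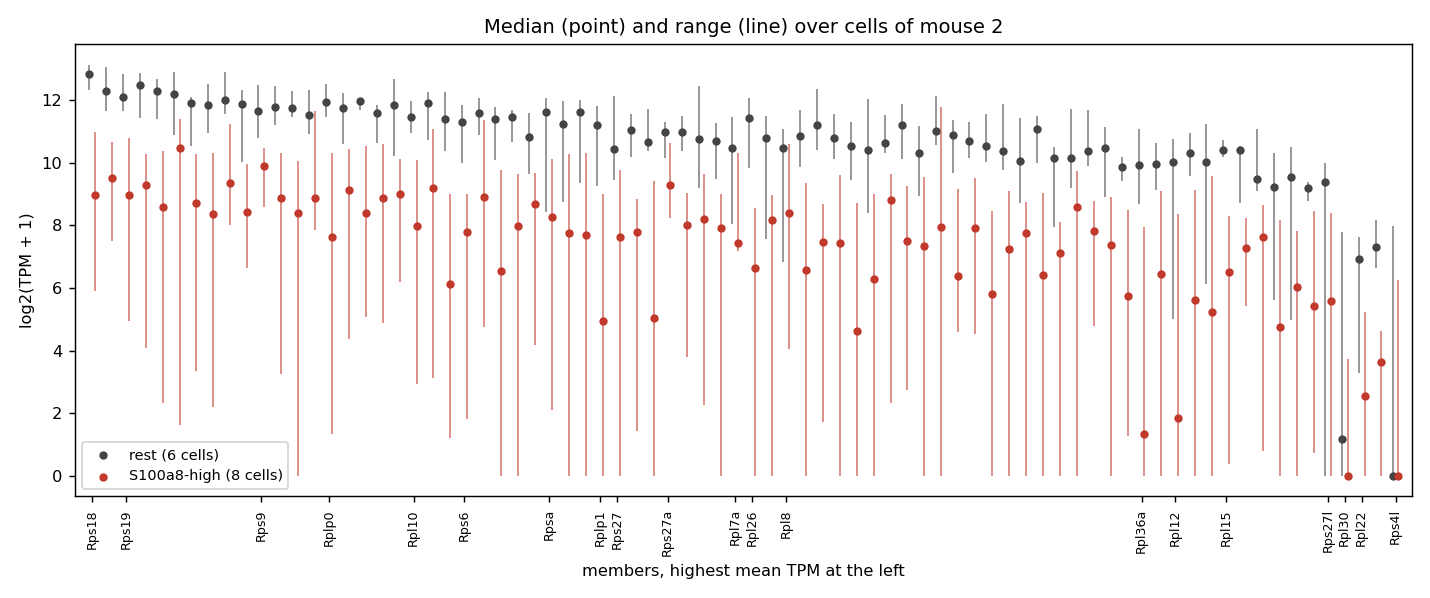
Median (point) and range (line) of log2(TPM + 1) of each member in 6 rest cells and 8 S100a8-high cells of mouse 2, with members in order of mean TPM. The medians of S100a8-high cells lie below those of rest cells for every member except Rps4l, which has a median of 0 in both.

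Other RNAs took up much of the total in these cells. The 17 genes that mark the states held a median of 47.4% of TPM in S100a8-high cells (32.6 to 52.2%). With those genes removed and the cells rescaled, the ribosomal share was 1.93, 4.26 and 8.48% in S100a8-high and 11.2, 19.6 and 20.98% in rest cells, still without overlap. The members' median difference was then -3.23, with 75 of 78 lower, against -0.75 and 44.4% over all remaining genes. Centred on widely detected genes it was -2.40, with 70 of 78 lower, against 0.69 and 18.5% over all genes. Less ribosomal protein mRNA per cell and more of other RNA cannot be told apart in TPM. Actb, which encodes cytoplasmic actin, was at 4712, 13851 and 23060 TPM in rest and 15604, 25777 and 47990 TPM in S100a8-high cells. The 8 shares of S100a8-high cells were 0.934, 1.84, 1.96, 2.07, 2.16, 2.25, 4.03 and 5.72%. Cell 73, at 2.07%, had 28 members at 0 and cell 84, at 0.934%, had 14, against at most 8 in the other 6 cells. Leaving out each S100a8-high or rest cell in turn gave median differences from -4.38 to -3.63 and 77 or 78 lower members, and the median stayed below 0 in all 26 settings tried.

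All 9 late neutrophil markers had a mean of 10 TPM or more in the S100a8-high cells, with a sum of 316225 to 520671 TPM against 5.26 to 213 TPM in rest cells of mouse 2. S100a8, which defined the group, is one of the 9, and the other 8 summed to 185532 to 383654 TPM against 2.9 to 209 TPM. The 6 stem and early progenitor markers summed to 0.20 to 14.5 TPM in S100a8-high cells, with Mecom at 0 in all 8, and to 344 to 4385 TPM in those rest cells. The 10 class II and dendritic markers summed to 6.18 to 9839 TPM in S100a8-high cells and 15.96 to 201 TPM in those rest cells. The part of cell type in the difference was not tested. Over the 11 cells of both mice whose S100a8 reached 1000 TPM, S100a8 and the ribosomal share had a rank correlation of -0.73, a description over cells in which both are parts of the same total.

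H2-Aa-high cells had lower values of many members than rest cells. The median difference was about that of all genes at 10 TPM or more and smaller in size than that of genes at 100 TPM or more. Rps18 was at 4798, 7372 and 9035 TPM in rest cells of mouse 1 and 871, 3186 and 5783 TPM in its H2-Aa-high cells, with a difference of -1.26. In mouse 2 it was at 2004, 4980 and 7961 TPM in H2-Aa-high cells, with a difference of -0.57. The groups overlapped in both mice. In mouse 1, 30 of 78 members were lower by 1 or more, against 41.7% of all genes, and none was higher, against 11.7%. In mouse 2, 26 were lower, against 47.2%, and none was higher, against 11.5%. These counts are shares of 38.5% and 33.3% of the members, below the share of all genes in each mouse. Median differences of the members were -0.82 and -0.75, and those of all genes -0.72 and -0.88. Over the genes whose mean reached 100 TPM they were -0.99 and -1.27. Of the 76 members that reached it, 28 and 24 were lower by 1 or more, against 49.8% and 54.6% of those genes. The mitochondrial ribosomal genes had medians of -1.13 and -1.60.

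Rps27, Rpl36a and Rpl15 were among the members furthest below rest cells. Rpl36a was at 406, 1508 and 3375 TPM in rest and 2.66, 508 and 1633 TPM in H2-Aa-high cells of mouse 1, and at 0, 380 and 2805 TPM in those of mouse 2. Its differences were -2.20 and -2.57, with overlap in both mice. Its paralog Rpl36al, which encodes a nearly identical protein from another gene, was at 0, 615 and 1225 TPM in rest and 2.48, 494 and 1954 TPM in H2-Aa-high cells of mouse 1. The differences of Rpl36al in mean log2(TPM + 1) were 0.72 and 0.86, opposite in sign to those of Rpl36a. In mouse 1 the median of Rpl36al was lower in H2-Aa-high than in rest cells, so its direction there depends on the measure. Rpl15, a large subunit protein also mutated in Diamond-Blackfan anemia, was at 1160, 1348 and 1699 TPM in rest and 0, 514 and 1140 TPM in H2-Aa-high cells of mouse 2. It was the only member without overlap in that comparison, which held for 0.374% of all genes, and in mouse 1 its groups overlapped (736, 1491 and 2226 TPM against 303, 659 and 1372 TPM). A gene at 0 in any rest cell of mouse 2 could not be among that 0.374%.

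Some members were above rest cells in 1 mouse. Rpl10, which joins the large subunit late in its assembly, differed by 0.31 in mouse 1 and -0.11 in mouse 2, and Rpl8 by -1.004 and 0.63. With the number of detected genes removed by a linear fit, the members' median differences in H2-Aa-high cells were -0.28 in mouse 1 and 0.12 in mouse 2. Centred on widely detected genes they were 0.04 and 0.35, so the sign of the members' median turned with centring in both mice and with detected-gene number in mouse 2. The 10 class II and dendritic markers all had a mean of 10 TPM or more in these cells, with sums of 64060 to 103371 TPM in mouse 1 and 65585 to 117256 TPM in mouse 2. H2-Aa, which defined the group, is one of the 10, and the other 9 summed to 43260 to 68444 TPM and 40028 to 85748 TPM.

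Mpo-high cells had a ribosomal share near that of rest cells. Rps18 was at 2483, 6261 and 8737 TPM in Mpo-high cells of mouse 1 and 4952, 6494 and 11687 TPM in those of mouse 2, and overlapped with rest cells in both. In mouse 1, 3 members were lower by 1 or more, Rps4l (-1.46), Rpl15 (-1.17) and Rpl18 (-1.06), against 7.63% of all genes. None was higher, against 29.4% of all genes. The members' median difference was -0.20 and that of all genes 0.38. Cell 41 was the lowest Mpo-high cell for Rpl15, Rpl18 and the summed share, and without it the count of lower members was 1 and the median -0.10. In mouse 2, 2 members were higher, Rpl30 (4.03) and Rpl12 (1.29), against 28% of all genes, and none was lower, against 17.9%. The medians were 0.22 for the members and 0.25 for all genes. The sign of the members' median turned in the RPKM table for mouse 1 (0.02). For mouse 2 it turned with detected-gene number removed (-0.03), with centring (-0.10) and at a state threshold of 3000 TPM (-0.0005). Without rest cell 54, 83, 88 or 94 the count was 5, 6, 5 or 4.

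Rpl30 and Rpl12 varied within states. Rpl30, a large subunit protein, was at 0, 1.27 and 221 TPM in rest and 0, 388 and 1237 TPM in Mpo-high cells of mouse 2, with 3 cells of each at 0. Rpl12, a protein of the stalk base, was at 31.5, 1038 and 1735 TPM in rest and 653, 1428 and 2948 TPM in Mpo-high cells. Both genes overlapped between the groups. In mouse 1 Rpl30 differed by -0.10 and Rpl12 by -0.84.

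**Figure D4:**
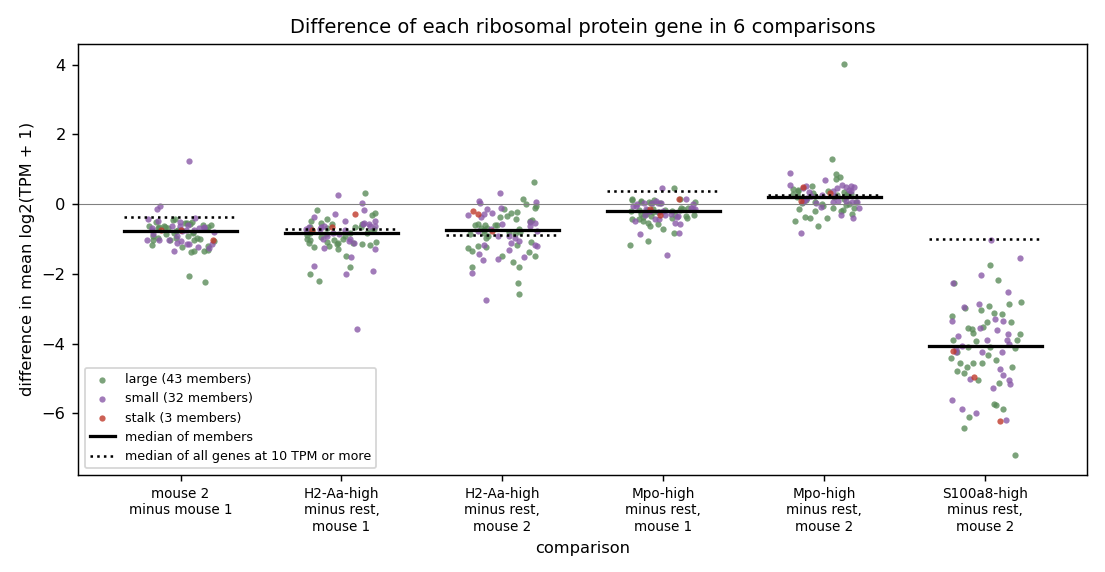
Difference in mean log2(TPM + 1) of each of the 78 members (points, by subunit) in 6 comparisons, with the median of the members (solid line) and of all 7210 genes at 10 TPM or more (dotted line). The solid line is far below the dotted one for S100a8-high cells (-4.08 against -0.99) and close to it for H2-Aa-high cells.

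Between the mice, 77 of 78 members were lower in mouse 2 over all cells, and 25 by 1 or more, against 17.6% of all genes. Rps4l alone was higher by that much (1.25), against 2.37% of all genes. Rps18 was at 871, 6082 and 9035 TPM in mouse 1 and 59.5, 5346 and 17632 TPM in mouse 2, with overlap and a difference of -0.52. The largest differences were those of Rpl36a (-2.24), Rpl30 (-2.07) and Rpl12 (-1.38), and the smallest below 0 those of Rps25 (-0.04) and Rps27a (-0.13). The median difference was -0.76 for members and -0.36 for all genes, and it was -0.70 over the genes whose mean reached 100 TPM. Of the 76 members that reached it, 25 were lower by 1 or more, against 35.2% of those genes, a share near that of the members. The members' means had a median of 1597 TPM, and no set of genes matched to that level was compared. Without the S100a8-high cells of mouse 2, 2 members were lower, against 13.5% of all genes. The members' median was then -0.16, against -0.27 for all genes, so most of the count of members rested on those 8 cells.

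Within a state the mice differed little in the members. In rest cells the median difference, mouse 2 minus mouse 1, was -0.14, with 1 member lower (Rpl30) against 19.1% of all genes and none higher against 21.1%. In Mpo-high cells it was 0.24, with 3 members higher (Rpl12, Rps12 and Rps4l) against 12.3% and none lower against 20.1%. In H2-Aa-high cells it was -0.03, with 4 lower (Rpl15, Rpl30 and Rps10 among them) against 16.8% and 1 higher (Rps4l) against 7.68%.

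Members were correlated with each other over cells, which share their TPM totals. The median rank correlation over the 3003 pairs of members was 0.29 in mouse 1 and 0.54 in mouse 2, and 0.31 in mouse 2 without its S100a8-high cells. Once the median member level of the cell was removed, the members with the least spread over cells included Rps19, Rpl23a, Rps14 and Rpsa, with a standard deviation of log2(TPM + 1) of 0.57 to 0.63 as the mean of both mice. Those with the most were Rps27 (3.95), Rpl30 (3.79), Rps27l (2.97), Rps4l (2.66) and Rpl36a (2.02). Rpl30 was at 0 in 43 cells.

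Some members have copies with rows of their own. Rps27 was at 0 in 18 cells, 6 of mouse 1 and 12 of mouse 2, and its retrogene Rps27rt was above 0 in all 18, with a median of 3058 TPM there and 1389 TPM in the other cells. The standard deviation over cells, after the cell's median member level was removed, was 3.60 and 4.30 for Rps27 in mouse 1 and mouse 2, but 0.44 and 1.23 for the sum of both genes. Rps27 was at 4.03, 2130 and 4885 TPM in rest and 0, 1488 and 3334 TPM in H2-Aa-high cells of mouse 1, with overlap and 5 H2-Aa-high cells at 0. The difference of Rps27 in H2-Aa-high cells, -3.58 and -2.74, was -0.40 and -0.06 for the sum. In S100a8-high cells it was -5.88 for Rps27 and -2.86 for the sum. RSEM divides reads between genes of like sequence, so the values of Rps27 alone are uncertain. Rps15a had a mean of 93.7 TPM, and its pseudogene rows Rps15a-ps4 and Rps15a-ps6 together 88.3 TPM, with a rank correlation between gene and pseudogenes of 0.91 in mouse 1 and 0.97 in mouse 2. Rpl34 (1044 TPM) had a pseudogene row at 895 TPM.

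**Figure D5:**
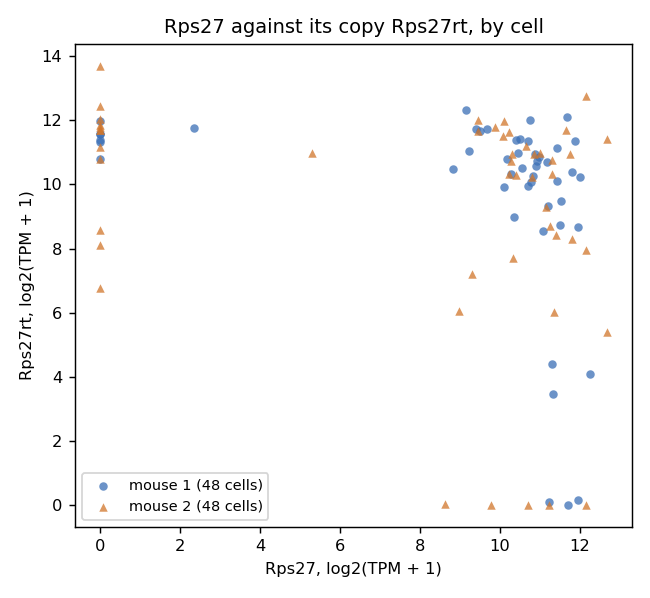
Rps27 against its retrogene Rps27rt in each cell, both as log2(TPM + 1). The 18 cells at 0 for Rps27 all lie above 0 for Rps27rt.

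Paralogs were not always the minor gene. Rpl22l1, outside the symbol rule, had a mean of 517 TPM against 164 TPM for Rpl22, and was the higher of the pair in 73 of 96 cells. Rpl36al had 779 TPM against 983 TPM for Rpl36a and was the higher in 32 cells. Rps27l, a p53 target, had 471 TPM against 1719 TPM for Rps27 and exceeded it in 20 cells. Rps27 was at 0 in 18 cells, all with Rps27rt above 0, so that count is as uncertain as Rps27 itself. Rps27l was not compared with the sum of Rps27 and Rps27rt. Rps4l had 27.1 TPM against 2419 TPM for Rps4x, and it reached 1 TPM in 4 and 14 cells of mouse 1 and mouse 2. Rpl3l, Rpl10l and Rpl39l, whose known expression is in muscle or testis, reached 1 TPM in 2, 0 and 1 cells.

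Genes that work with the ribosome were also lower in S100a8-high cells, where 49.8% of all genes were lower and the median over all genes was -0.99 (-2.03 over those that reached 100 TPM). Of 8 ribosome genes outside the symbol rule at 10 TPM or more, all 8 were lower by 1 or more (median -3.34). They included Gnb2l1, the Rack1 scaffold of the small subunit, at 2223, 2806 and 3361 TPM in rest and 0, 102 and 548 TPM in S100a8-high cells (-6.47), and Fau (-1.88). All 10 elongation factors and other TOP mRNAs were lower (median -3.47). Eef1a1, which carries aminoacyl-tRNA to the ribosome, was at 4863, 14146 and 19293 TPM in rest and 7.27, 2326 and 5133 TPM in S100a8-high cells, with overlap between the groups only at the lowest rest cell (-3.39). Of 28 ribosome biogenesis genes 27 were lower (median -3.50), among them Npm1, the nucleolar chaperone nucleophosmin, at 1348, 2275 and 4467 TPM in rest and 2.25, 34.9 and 73.7 TPM in S100a8-high cells, without overlap (-6.59). Ltv1 was the other one (0.08).

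In H2-Aa-high cells 15 of the 28 biogenesis genes were lower in mouse 1 and 21 in mouse 2, with medians of -1.03 and -1.91, against 41.7% and 47.2% of all genes. Nop56, a core protein of box C/D particles, was at 0, 240 and 1212 TPM in rest and 0, 0.665 and 1579 TPM in H2-Aa-high cells of mouse 1 (-3.57), with overlap, and differed by -5.44 in mouse 2. In Mpo-high cells of mouse 1, 18 biogenesis genes were higher and none lower (median 1.70), against 29.4% of all genes higher and 7.63% lower, while none of the 78 members was higher. Of the 8 ribosome genes outside the symbol rule 2 were higher there, Rpl36al (1.46) and Rpl7l1 (2.09). In mouse 2, 9 biogenesis genes were higher and 2 lower (median 0.27), against 28% and 17.9% of all genes. Myc, a transcription factor that drives ribosome production, was at 0, 25.6 and 449 TPM in rest and 36.9, 338 and 983 TPM in Mpo-high cells of mouse 1 (3.63), with overlap. Myc differed by 1.03 in Mpo-high cells of mouse 2, by -3.07 and -3.82 in H2-Aa-high cells of mouse 1 and mouse 2, and by -5.50 in S100a8-high cells. Its paralog Mycn was at 0, 181 and 759 TPM in rest and 0, 0 and 180 TPM in Mpo-high cells of mouse 1, with overlap. Mycn differed by -3.22 and -4.75 in Mpo-high cells of mouse 1 and mouse 2, opposite in sign to Myc. Of the 10 growth regulators at 10 TPM or more, 5 were lower in S100a8-high cells, against 49.8% of all genes. Of the 4 genes of p53 and the 5S particle 3 were lower, with Trp53 at -7.38.

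Among 7119 genes that are not members, those most like the cell's median member level over cells were Rps15a-ps4 (rank correlation 0.73, mean of both mice), Npm1 (0.69), Eef1a1 (0.68), Rps15a-ps6 (0.66) and Socs2 (0.62). The median over all those genes was 0.12. The most opposed included Actb (-0.60), Itgb2 (-0.55), Anxa1 (-0.55) and Pfn1 (-0.50). These are descriptions over 48 cells of each mouse, which share the TPM total and the mixture of states.

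Members with and without the pyrimidine run at an annotated start differed from rest cells by similar amounts. In S100a8-high cells the median difference was -4.33 over the 20 members with the run (-5.88 to -1.75) and -3.91 over the 37 without it (-7.19 to -2.53). The ranges overlapped, and Rpl7a, with the longest run shown above, had one of the smallest differences.

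The deposited RPKM table gave another picture of the members. It held 73 of them, but 44.1% of their values lay at the lowest value of the gene, and 72 of the 73 had a mean RPKM under 0.1 times their mean TPM. The median over members of the mean was 3.66 RPKM against 1592 TPM. Rpl35a was the exception, with a mean of 5951 RPKM, and its difference in S100a8-high cells was -4.32 in RPKM and -4.46 in TPM. Over all 73 members the median difference in S100a8-high cells was -0.37 in RPKM, with 17 lower by 1 or more. Over all genes of the RPKM table the median was 0 and 5% were lower. The members' median was -0.66 over the 40 members above their lowest value in most cells, 34 of which were below 0. The size of the differences above therefore rests on the TPM table.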

How the data were processed

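Single-cell RNA-seq libraries of 96 cells were analysed from the tables the authors deposited. The TPM values the authors deposited carry RSEM in the name of their table, and the deposited RPKM values carry AltAnalyze in theirs. TopHat2, RSEM and Bowtie2 and the builds mm10 and mm9 are named in the submitters' processing notes, and their versions and roles are not given in the sources used here. Values were analysed as log2(TPM + 1) with pandas 2.3.3 and numpy 2.4.6 in Python 3.11.15. A difference is that of the means over cells, and it understates the change of low genes. A gene is counted as lower or higher at a difference of 1 or more. All rows with a mean of 10 TPM or more (7210) were the background. Members, states and gene lists were chosen with earlier results of these data known. Named genes are the 10 highest and 5 lowest members, the 3 largest and smallest differences of each comparison, the 5 most and least variable members, paralogs, stalk genes and members of known function, and further genes chosen after their values were seen: Rps9, Actb, Itgb2, Anxa1, Pfn1, Gnb2l1, Fau, Ltv1, Nop56, Myc, Mycn, Trp53, Rpl34, Rpl35a, Rps10 and Rps12. Some genes these rules take are not reported here. Pseudocount, filter, table, scaling, detected-gene number, state threshold and single cells were varied. The code that computes the differences was tested on simulated data; the comparisons themselves have no test. No doublet caller was run on so few cells. A total of 0 columns were without a sample.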

Additional observations from a re-analysis of the deposited data

How the results depend on the processing

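Of 208 recalculations, 169 kept their value within the spread over cells or, for counts, within 1.5 times, 39 moved and 0 reversed a difference of 1 or more in size. Among the members' median differences only that of S100a8-high cells was of this size, so only its 26 settings could count as reversed. Counts and shares could not. Some smaller medians turned sign, as given here and in the comparisons. The spread over cells (1.66) exceeds the median difference between the mice (-0.76), so even a fall to 0 would not count as moved for that median, which ranged from -0.85 to -0.03 and was -0.20 in the RPKM table and -0.22 centred on widely detected genes. The count of members past a log2 difference of 1 between the mice (26 in all) was 12 with a pseudocount of 10 TPM, 2 in the RPKM table, 6 with detected-gene number removed, 12 without cells under 2000 detected genes, 16 rescaled without state genes, 3 centred on widely detected genes, 1 in rest cells only, 3 without S100a8-high cells and 5 in H2-Aa-high cells only. For H2-Aa-high cells of mouse 1 the median moved to -0.14 in RPKM, -0.28 with detected-gene number removed and 0.0437 centred, and the count from 30 to 3, 3 and 7, and to 18 rescaled. In mouse 2 the median moved to -0.14, 0.12 and 0.35, and the count from 26 to 2, 4 and 11. For Mpo-high cells of mouse 1 the median moved to -0.71 with detected-gene number removed and -0.62 centred, and the count from 3 to 14 and 8; it was 5 with a pseudocount of 0.1 TPM, 1 with 10 TPM, 1 and 7 at state thresholds of 300 and 3000 TPM, and 1 without cell 41. In mouse 2 the count moved from 2 to 4 with a pseudocount of 0.1 TPM, to 6 at a state threshold of 300 TPM, and to between 2 and 6 when leaving out each rest cell. For S100a8-high cells the median was -0.37 and the count 17 in RPKM. The cause of these changes was not tested. Settings on single cells and the share without named copies (15.9 and 13.1%) were chosen after seeing the data, and the share without near-identical copies by protein was not run. Depth is unknown, and a member at 0 in a cell may be present below detection.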
